A study of Mus musculus with 14 samples.

Results

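The transcripts of 10 cytokine receptor subunits (Il2rb, Il2rg, Il7r, Il6ra, Il6st, Il4ra, Il1rl1, Il18r1, Il10ra and Il27ra) were followed in mouse regulatory T cells (Tregs), the suppressive CD4 lineage defined by Foxp3. The genes were taken by symbol from the deposited array matrix, where each had 1 row, so that 10 of 22203 named transcript clusters (the probes that read 1 gene) were described.

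RNA from sorted Foxp3-YFP+ Tregs of mixed bone marrow chimeras on the C57BL/6 background had been hybridised to 14 Clariom S arrays. The cells came from the spleen by the study's methods, and the series' description adds peripheral lymph nodes. All Tregs carried Foxp3-driven Cre fused to YFP, and descended from CD45.2+ marrow that was Foxp3Cre Atg14+/fl (control, labelled heterozygous, 1 floxed Atg14 allele) or Foxp3Cre Atg14fl/fl (labelled KO, both alleles floxed). This marrow had been mixed with CD45.1+ wild-type marrow and given to sublethally irradiated Rag1-/- hosts, which lack mature T and B cells of their own but keep natural killer cells, innate lymphoid cells and myeloid cells. The hosts were reconstituted for 6 to 8 weeks, and the methods give a general age range of weeks to months for Atg14fl/fl mice, with age-matched controls, but no age for the donors of these arrays. Central Tregs (cTregs, sorted as CD44low) and effector Tregs (eTregs, CD44high) gave 4 control cTreg, 3 KO cTreg, 4 control eTreg and 3 KO eTreg arrays. The gates of the sort were not set by CD44 alone. The study's methods state that some experiments used Atg14fl/fl mice with an Atg14+/- or Atg14-/- allele. The authors saw no notable difference of these mice in the phenotypes they report. Arrays are written by label and replicate number, as KO eTreg 1.

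Cytokine receptors of these families work as combinations of chains. Il2rg, the common gamma chain, is shared by the receptors of IL-2, IL-4, IL-7 and IL-21, and Il6st (gp130) is shared by those of IL-6 and IL-27. Il1rl1 (ST2) and Il18r1 bind IL-33 and IL-18, members of the IL-1 family that signal through MyD88, whereas the other chains signal through JAK kinases and STAT factors. Tregs depend on IL-2 for their maintenance, and ST2 is known as a mark of tissue and effector Tregs.

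Il1rl1 and Il18r1 are neighbouring genes on chromosome 1 and were the 2 members with the largest differences described below, so their promoters are shown. In RefSeq (GRCm38.p6), 7 of the 10 members had an entry in the promoter table. Windows of 250 bases before a start site, on the plus strand, are given 5′ to 3′ for both start sites of Il1rl1, which lie at the ends of chr1:40429320-40429569 and chr1:40439379-40439628, and for the first and last of the 3 listed starts of Il18r1 (chr1:40465302-40465551 and chr1:40465756-40466005). Capitals mark matches, on either strand, to the GATA word AGATAA, to its forms that begin with T, end with G or do both, and to the STAT word TTCNNNGAA.
Il1rl1, first start: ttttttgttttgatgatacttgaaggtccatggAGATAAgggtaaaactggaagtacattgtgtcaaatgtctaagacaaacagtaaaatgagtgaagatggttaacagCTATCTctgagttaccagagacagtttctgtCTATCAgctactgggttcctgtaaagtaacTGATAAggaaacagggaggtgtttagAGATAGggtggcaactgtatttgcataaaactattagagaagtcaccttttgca
Il1rl1, second start: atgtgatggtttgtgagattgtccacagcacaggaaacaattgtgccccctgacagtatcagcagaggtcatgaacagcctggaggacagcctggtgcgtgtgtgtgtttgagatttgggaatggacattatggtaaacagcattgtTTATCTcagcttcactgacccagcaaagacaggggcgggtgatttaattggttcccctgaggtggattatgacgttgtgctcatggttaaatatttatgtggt
Il18r1, first start: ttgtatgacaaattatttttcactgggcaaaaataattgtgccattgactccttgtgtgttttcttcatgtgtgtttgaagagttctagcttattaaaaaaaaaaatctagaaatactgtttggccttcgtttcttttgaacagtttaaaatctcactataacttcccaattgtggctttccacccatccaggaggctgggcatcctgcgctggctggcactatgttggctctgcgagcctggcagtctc
Il18r1, last start: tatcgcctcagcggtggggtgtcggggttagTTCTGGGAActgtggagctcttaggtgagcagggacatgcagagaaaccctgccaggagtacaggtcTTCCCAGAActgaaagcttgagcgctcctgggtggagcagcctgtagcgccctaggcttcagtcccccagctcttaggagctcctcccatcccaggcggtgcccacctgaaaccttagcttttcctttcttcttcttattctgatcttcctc
The window of the first Il1rl1 start held 5 GATA words and that of the second held 1. Such a word was present in 26.5% of the 32851 RefSeq mouse promoter windows of the same length. The Il18r1 windows held no GATA word. The window of its last start held 2 STAT words, which were present in 7.02% of all windows, and that of its first start held none. The AP-1 word TGANTCA, present in 6.75% of all windows, had 0 matches in these 4. The words are matches of letters and no binding was measured. The array gave 1 value for Il1rl1, so that transcripts from its 2 starts were not read apart.

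The arrays were first examined for the sort and for the targeted gene. Atg14 was not lower on the arrays labelled KO. Its log2 signal was 9.16 ± 0.16 (SD, n = 3) in KO eTregs and 8.84 ± 0.16 (n = 4) in control eTregs, a difference of 0.32 (limma, adjusted P = 0.550), and 9.29 ± 0.042 (n = 3) against 8.94 ± 0.26 (n = 4) in cTregs, a difference of 0.35 (adjusted P = 0.9999). The signal thus did not show the loss that the genotype labels imply, and neither difference was called. By quantitative PCR, the study checked the deletion of Atg14 in sorted Tregs of Foxp3Cre Atg14fl/fl mice, which were not these chimeras. The part of the transcript that the probes read was not analysed here. Cd44, a marker used in the sort, was higher in eTregs by 1.61 in controls and by 1.80 in arrays labelled KO, and Foxp3 differed between subsets by 0.02 in both. KO eTreg 1 stood apart from the other eTreg arrays, with the lowest Cd44 signal (10.60) among them. Replicates differed by more than rounding, with correlations of 0.962 to 0.994 between arrays and no 2 identical columns.

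Signals of other cell types differed between arrays. The summed signal of 15 monocyte and macrophage markers was 4366 to 4634 in control cTregs, 4780 to 5197 in KO cTregs and 6536 to 8710 in control eTregs, whereas it was 5276 on KO eTreg 1, 25786 on KO eTreg 2 and 27951 on KO eTreg 3. Of these markers, 0 of 15 were called between subsets in controls, against 3.06% of all transcript clusters. In arrays labelled KO it was 5 of 15, against 2.35%. In controls, however, 10 of 15 were higher in eTregs without overlap (6.12% of all transcript clusters). Their median difference there was 0.48. None of the 15 lay within 1 log2 unit of the background probes on all arrays. The 10 dendritic cell markers summed to 5622 to 7010 except on KO eTreg 2 (9948) and KO eTreg 3 (11582), with 0 and 2 of 10 called in the same contrasts. Between genotypes in eTregs, 1 of these 10 and 0 of the 15 macrophage markers were called, against 0.117% of all transcript clusters. The gene was Siglech, higher in KO eTregs by 1.78 (limma, adjusted P = 0.000483), and it was called in all 14 omissions of an array. Mast cells, basophils and type 2 innate lymphoid cells also carry ST2. Their 12 markers had 0 calls in all contrasts and summed to 3497 to 4913 apart from KO eTreg 2 (6806) and KO eTreg 3 (7752), where Kit was highest (11.81 and 12.21). Most of the list did not share this rise. Gene by gene, 5 of the 12 were higher and 7 lower in KO than in control eTregs, with a median log2 difference of -0.05. Fcer1a and Cma1, which encode the IgE receptor alpha chain and a mast cell chymase, were within 1 log2 unit of the background probes on every array. Of 10 natural killer and CD8 T cell markers, which summed to 2887 to 3622 in control eTregs, 3402 to 4613 in both cTreg groups and 4101 to 5518 in KO eTregs, 3 were called between subsets in controls and 2 in arrays labelled KO. Klrb1c (NK1.1) was at 5.60 to 6.25 in control cTregs, where the background probes had medians of 6.11 to 6.17, and at 7.38 to 9.18 in control eTregs. It was called higher in both genotypes. Prf1 (perforin) and Cd8b1 fell in control eTregs, by 1.30 and 0.62, and Gzmk (granzyme K) rose by 1.78 in KO eTregs. Ncr1, which defines natural killer cells, lay between 6.30 and 7.47 and was not called. Natural killer cells carry Il18r1, Il18rap and Il2rb. The sort kept Foxp3-YFP+ cells, and the part of other cells in the results below was not tested. Fewer cells of a type and less RNA per cell cannot be told apart in these bulk samples.

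**Figure D1:**
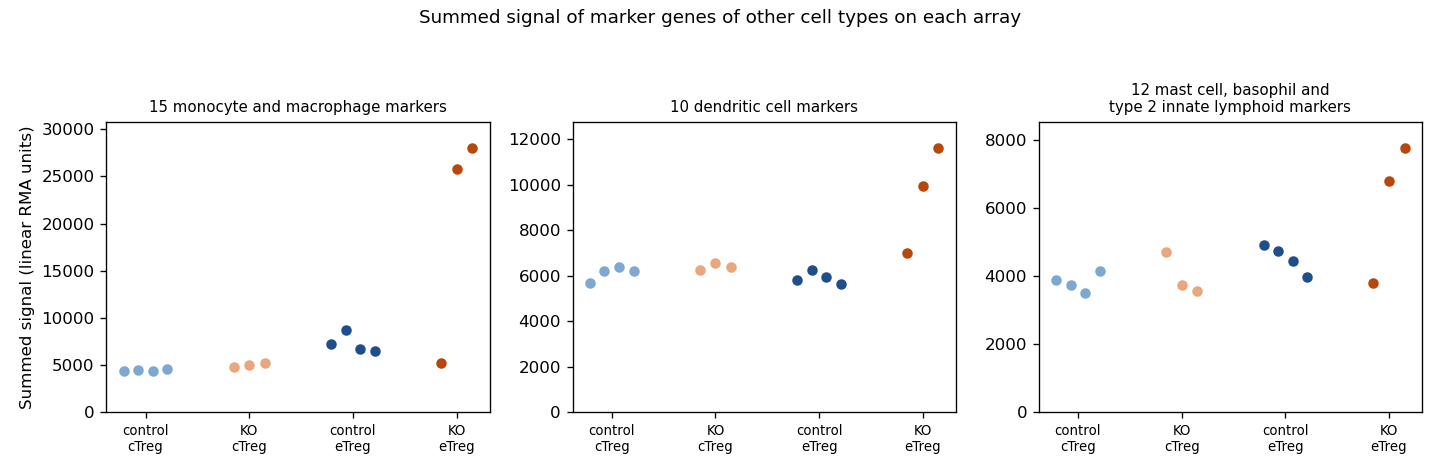
Summed linear signal of 3 marker lists on each of the 14 arrays, by group, with 1 point per array and axes that start at 0. KO eTreg 2 and KO eTreg 3 (25786 and 27951 for macrophage markers) sit far above the other arrays, and KO eTreg 1 lies at 5276. In the list of mast cell, basophil and type 2 innate lymphoid markers, 7 of 12 genes were lower in KO than in control eTregs.

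Between the subsets, the receptors for IL-33 and IL-18 rose in eTregs of both genotypes and the other 8 members did not reach the same threshold. A gene was called when its mean signal differed by at least 0.5 on the log2 scale with a limma P below 0.05 after Benjamini-Hochberg adjustment over all 22203 transcript clusters. In controls 2 of 10 members were called, both higher, against 3.06% of all transcript clusters (2.14% higher and 0.919% lower). The arrays labelled KO also gave 2 of 10, both higher, against 2.35% (2.02% higher and 0.329% lower). The median difference over the 10 members was 0.07 in controls and 0.05 in arrays labelled KO, beside 0.003 and -0.04 over all transcript clusters.

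**Figure D2:**
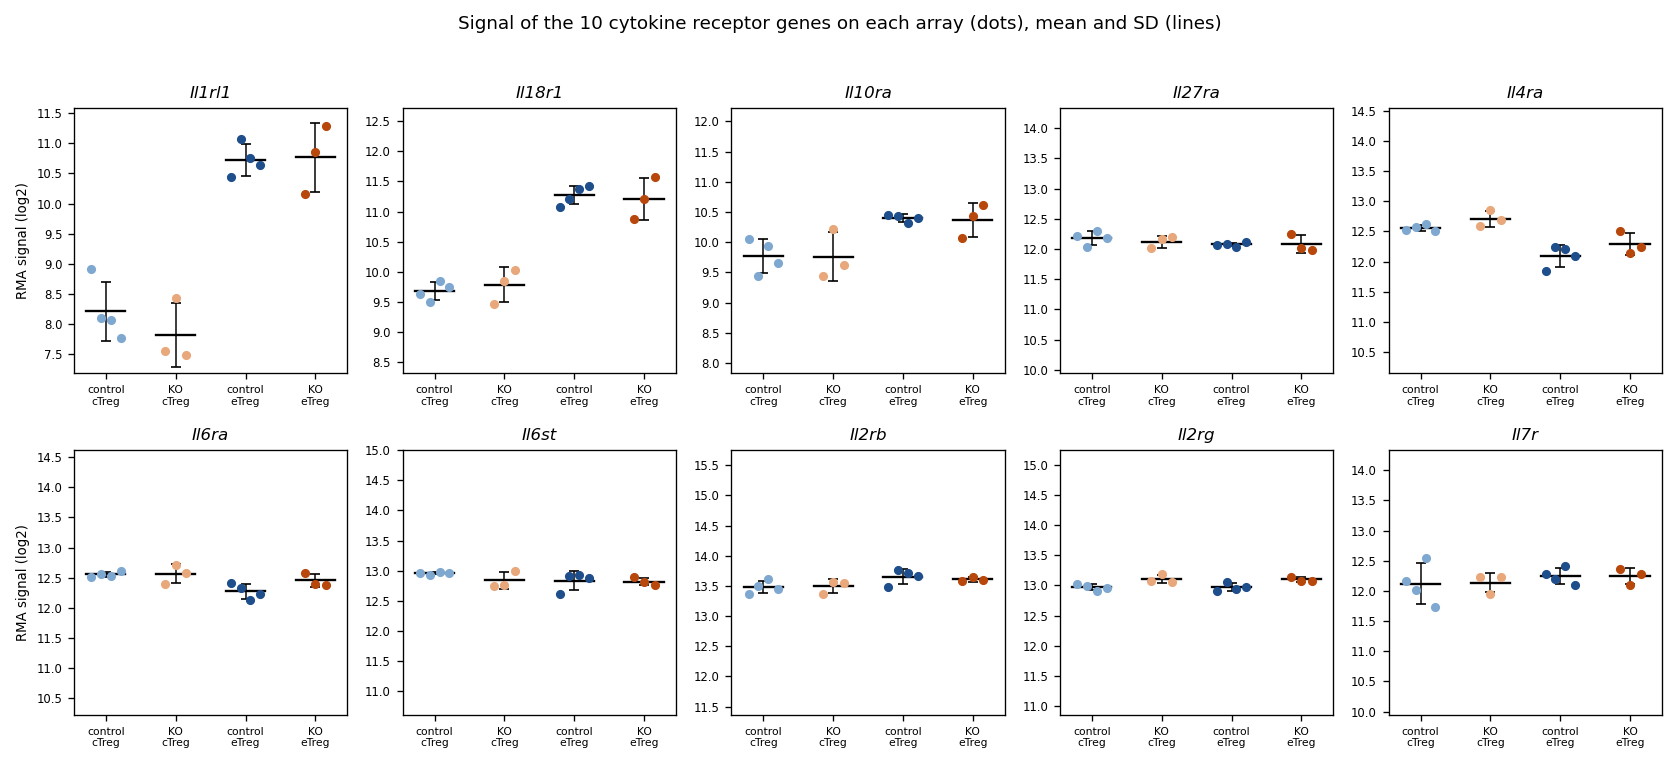
Log2 RMA signal of each member on the 14 arrays, with 1 point per array, a horizontal line at the group mean and bars of 1 SD. Every panel spans the same number of log2 units, and the eTreg arrays lie above all cTreg arrays for Il1rl1 and Il18r1 in both genotypes.

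Il1rl1 encodes ST2, the IL-33 receptor. Its log2 signals in control cTregs were 8.92, 8.10, 8.07 and 7.77, and in control eTregs 10.44, 11.08, 10.75 and 10.64. Every control eTreg array exceeded every control cTreg array. The difference of 2.51 ± 0.27 (SE, 95% interval 1.93 to 3.09) was a 5.70-fold change (limma, adjusted P = 4.94e-05). The cTreg signals of arrays labelled KO were 7.56, 8.43 and 7.48, and the eTreg signals 10.15, 10.85 and 11.29. The difference there was 2.94 ± 0.32 (SE, 2.27 to 3.61), or 7.67-fold (adjusted P = 8.65e-05). The lowest eTreg value was that of KO eTreg 1, and without this array the difference was 3.24, while it was 2.89 without KO eTreg 2 and 2.68 when KO eTreg 3 was left out, the arrays with high macrophage marker signal. In controls the macrophage sums, given above, also did not overlap between the subsets.

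Il18r1 encodes the ligand-binding chain of the IL-18 receptor. In controls its signals were 9.63, 9.50, 9.85 and 9.74 in cTregs, and 11.08, 11.21, 11.37 and 11.42 in eTregs. These groups were narrow and far apart, with SDs of 0.15 in both. The difference was 1.59 ± 0.15 (SE, 95% interval 1.27 to 1.91), or 3.01-fold (limma, adjusted P = 1.65e-05). Arrays labelled KO gave 9.47, 9.85 and 10.04 in cTregs and 10.87, 11.20 and 11.57 in eTregs. The difference was 1.43 ± 0.18 (SE, 1.05 to 1.80), or 2.69-fold (adjusted P = 0.00036), and 1.60, 1.43 and 1.25 without KO eTreg 1, 2 and 3 in turn.

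Il10ra, the ligand-binding chain of the IL-10 receptor, was the third in size. Its control signals were 10.06, 9.43, 9.93 and 9.66 in cTregs and 10.44, 10.44, 10.31 and 10.40 in eTregs. All 4 eTreg arrays were above the highest cTreg array, and the eTreg arrays lay closer together (SD 0.061 against 0.28). The difference of 0.63 (95% interval 0.26 to 0.99) had an adjusted P of 0.0556 in the limma fit and was not called. It was called when 1 of 4 arrays was left out, namely control cTreg 1 (0.72, adjusted P = 0.0436), KO cTreg 1, KO cTreg 2 or KO eTreg 1 (0.63 in each, adjusted P = 0.0221 to 0.0418). With the replicate number as a block it was called as well (adjusted P = 0.0406), and 6 of the 7 settings other than omissions called it. Arrays labelled KO measured 9.44, 10.22 and 9.62 in cTregs and 10.06, 10.44 and 10.62 in eTregs, which overlapped. The difference was 0.61 (0.19 to 1.03, adjusted P = 0.139), and it was called without KO eTreg 1 (0.76, adjusted P = 0.0377) or KO cTreg 2 (0.84, adjusted P = 0.0327). Averaged over both genotypes, a contrast chosen after the values were seen, Il10ra was called higher in eTregs by 0.62 (0.34 to 0.90, adjusted P = 0.00726), with 3 of 10 members called against 4.04% of all transcript clusters. Macrophages also express Il10ra, and their marker signal moved in the same direction between the subsets. Mean Il10ra signal was 10.40 in control and 10.37 in KO eTregs, where the macrophage sums reached 8710 and 27951. The part of macrophages in the Il10ra difference was not tested.

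Il4ra, the IL-4 receptor alpha chain that pairs with Il2rg, pointed the other way. In controls its signals were 12.53, 12.57, 12.63 and 12.52 in cTregs and 11.84, 12.24, 12.22 and 12.09 in eTregs. Every eTreg array was below every cTreg array. The difference of -0.46 (95% interval -0.70 to -0.22) had a limma adjusted P of 0.0280 but was smaller than 0.5, and so was not called. It was called without control eTreg 2 (-0.51, adjusted P = 0.0329) or control eTreg 3 (-0.50, adjusted P = 0.0420). Arrays labelled KO gave 12.59, 12.85 and 12.69 in cTregs and 12.50, 12.14 and 12.24 in eTregs, again without overlap. Here the difference was -0.42 (-0.69 to -0.14, adjusted P = 0.118), and -0.52 without KO eTreg 1, where it was called (adjusted P = 0.0311). In the average over both genotypes it was -0.44 (-0.62 to -0.26, adjusted P = 0.0039).

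Il6ra, Il6st and Il27ra form the receptors of IL-6 and IL-27. Il6ra, which binds IL-6, measured 12.51, 12.56, 12.54 and 12.62 in control cTregs and 12.42, 12.33, 12.13 and 12.23 in control eTregs. The eTreg arrays were all lower, by 0.28 on average (limma, adjusted P = 0.184). With the KO label, 12.40, 12.72 and 12.58 in cTregs overlapped with 12.59, 12.39 and 12.39 in eTregs, and the difference was -0.11 (adjusted P = 0.731). Il6st, the shared signalling chain, lay between 12.61 and 13.00 over all 14 arrays and differed by -0.12 in controls (95% interval -0.33 to 0.08) and -0.02 in arrays labelled KO (-0.26 to 0.22). Il27ra lay between 11.98 and 12.30 and differed by -0.10 (-0.30 to 0.10) and -0.04 (-0.27 to 0.19). A change of Il27ra by 0.5 in either direction was thus outside both intervals.

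Il2rb, Il2rg and Il7r bind the cytokines that maintain lymphocytes. Il2rb, the IL-2 receptor beta chain, lay between 13.36 and 13.76 over the 14 arrays, and its eTreg minus cTreg difference was 0.18 in controls (95% interval -0.03 to 0.38, limma adjusted P = 0.502) and 0.12 in arrays labelled KO (-0.12 to 0.35), where the 3 eTreg arrays were all above the cTreg arrays. Il2rg ranged from 12.91 to 13.19 and differed between the subsets by 0.003 (-0.17 to 0.18) and -0.009 (-0.21 to 0.19). Il7r, the IL-7 receptor alpha chain, was the more variable, with 12.16, 12.01, 12.55 and 11.73 in control cTregs and 12.28, 12.20, 12.40 and 12.10 in control eTregs. Its groups overlapped in both genotypes, with differences of 0.13 (-0.18 to 0.44, adjusted P = 0.847) and 0.11 (-0.24 to 0.47, adjusted P = 0.828). Il2ra, the IL-2 receptor alpha chain and a protein abundant on Tregs, gave signals between 6.94 and 8.44 and was not called in any contrast. The background probe medians of the arrays were 6.00 to 6.30. Its means were 7.92 in control cTregs and 7.42 in control eTregs, and 7.81 and 7.61 in arrays labelled KO. At such low signal, the lack of a call does not show that its transcript was unchanged.

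Counting arrays rather than fits, 5 of 10 members had no overlap between the subsets in controls (3 higher and 2 lower), against 11.1% of all transcript clusters (6.12% higher and 5.02% lower). With the KO label it was 4 of 10 (3 higher and 1 lower) against 14% (6.46% higher and 7.49% lower). Il1rl1, Il18r1 and Il4ra were separated in both.

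**Figure D3:**
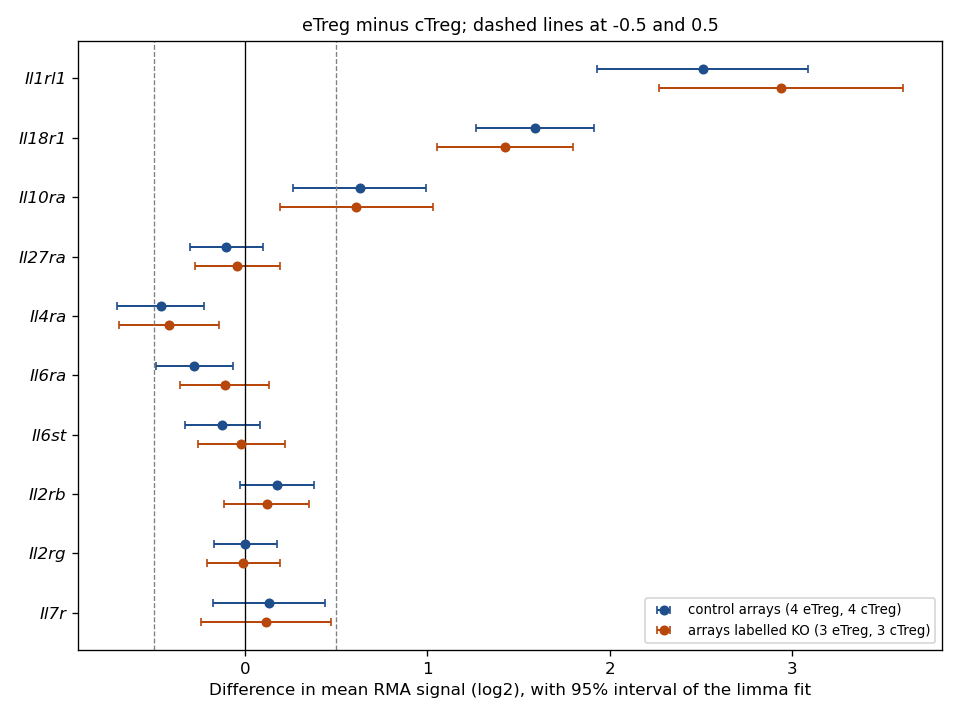
Difference in mean log2 signal, eTreg minus cTreg, for the 10 members with the 95% interval of the limma fit, in controls (blue) and in arrays labelled KO (orange), with dashed lines at -0.5 and 0.5. The intervals of Il1rl1 and Il18r1 lie wholly above 0.5 in both, those of Il10ra above 0 and those of Il4ra below 0, and the intervals of both genotypes overlap for every member.

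Il1rl1 and Il18r1 belong to a row of IL-1 receptor genes, which in RefSeq gene order is Il1r2, Il1r1, Il1rl2, Il1rl1, Il18r1 and Il18rap with 0 other protein-coding genes in between. Of these 6 genes, 4 were called higher in eTregs in controls, against 2.14% of all transcript clusters. It was also 4 in arrays labelled KO, against 2.02%. Il1rl1 and Il18r1, for which the row was chosen, are 2 of the 4 in each. Il1r2, a decoy receptor of IL-1, measured 8.44, 8.39, 8.14 and 8.65 in control cTregs and 9.88, 11.30, 10.44 and 11.19 in control eTregs, a rise of 2.30 (limma, adjusted P = 0.000214), and rose by 2.43 in arrays labelled KO (adjusted P = 0.000872). Il18rap, the accessory chain that Il18r1 needs to signal, rose from 7.92, 8.14, 7.89 and 8.26 to 9.19, 9.08, 9.27 and 9.21, by 1.14 (adjusted P = 0.000189), and by 1.27 in arrays labelled KO (adjusted P = 0.00054). The second and the third gene of the row were not called. Il1r1, the signalling receptor of IL-1, had differences of 0.53 (adjusted P = 0.0888) and 0.63 (adjusted P = 0.0952), and Il1rl2, a receptor of IL-36, of -0.53 (adjusted P = 0.411) and -0.33 (adjusted P = 0.683). Both 95% intervals of Il1r1 were above 0.

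**Figure D4:**
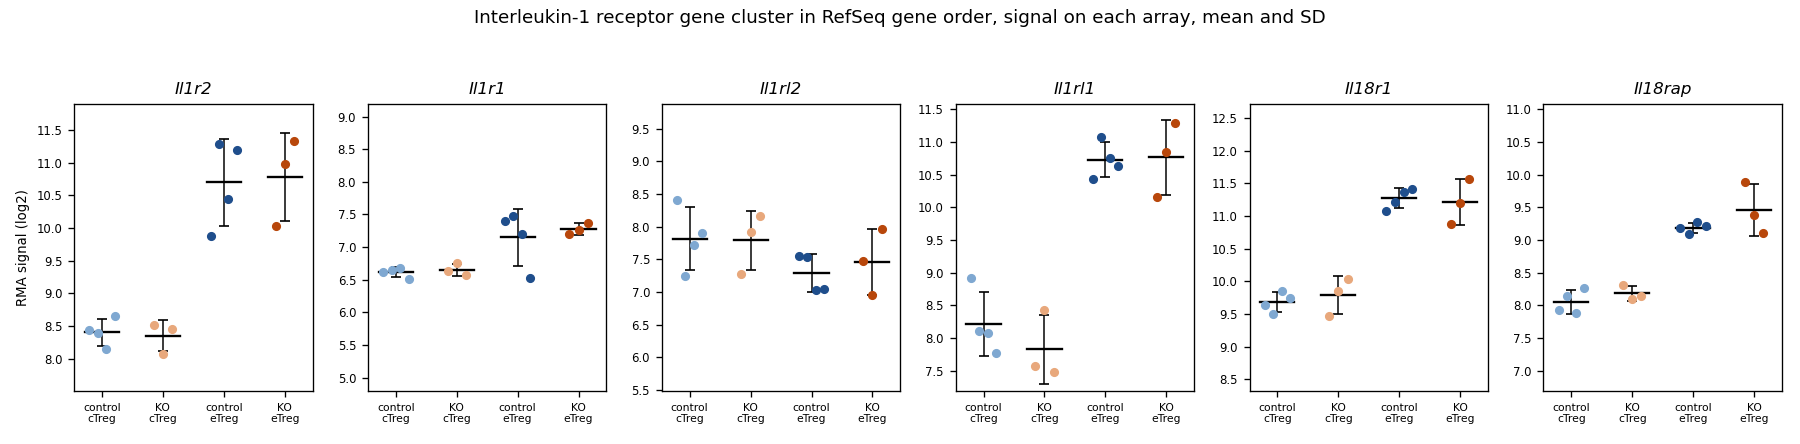
Log2 RMA signal of the 6 IL-1 receptor cluster genes in their order on the chromosome, with 1 point per array, group means as lines and bars of 1 SD. Il1r2, Il1rl1, Il18r1 and Il18rap are separated between cTregs and eTregs in both genotypes, whereas Il1rl2 overlaps.

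Among 50 partner and other cytokine receptor subunits, 8 rose and 2 fell in control eTregs, where 2.14% of all transcript clusters rose and 0.919% fell. The median difference over the 50 was 0.08. Apart from Il1r2 and Il18rap, the IL-23 receptor chain Il23r rose by 1.51, the IL-17 receptor family members Il17re and Il17rb by 1.07 and 0.70, the IL-9 receptor Il9r by 0.74, the TGF-beta receptor Tgfbr1 by 0.70 and Il12rb1, shared by the IL-12 and IL-23 receptors, by 0.63. Tgfbr3 fell by 0.62 and Ifngr2, the interferon-gamma receptor beta chain, also by 0.62. These 2 were named after their values were seen. Of the 10, 6 were called with any single array left out. Il17rb lost its call without control cTreg 2 (adjusted P = 0.0533). Il17re lost it without control cTreg 3 or 4 or control eTreg 1 or 2 (adjusted P up to 0.0670), Tgfbr1 without control cTreg 1, 3 or 4 or control eTreg 2, 3 or 4 (up to 0.0886) or with array medians subtracted, and Tgfbr3 without control cTreg 1 or 2 or control eTreg 1, 3 or 4 (up to 0.112).

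On the arrays labelled KO, 8 of the 50 rose in eTregs and 0 fell, against 2.02% and 0.329% of all transcript clusters. Il1r2, Il18rap, Il23r (1.72) and Il17rb (0.90) were again among them. The others were Csf1r (2.57), the receptor that defines monocytes and macrophages, Csf2rb2 (1.33) and Csf2ra (0.66), chains of the IL-3 and GM-CSF receptors, and Il13ra1 (0.94). Csf1r measured 8.99, 11.90 and 11.69 on KO eTreg 1, 2 and 3, high on the same 2 arrays as the summed macrophage signal, and lost its call without KO eTreg 2 or 3 or KO cTreg 1 or 3 (limma adjusted P up to 0.0787). Csf2rb2 lost its call without KO eTreg 2 or 3 or KO cTreg 1 (up to 0.0759), and Il13ra1 without KO eTreg 2 or 3 or any KO cTreg array (up to 0.126). Csf2ra was called in 2 of 14 omissions (up to 0.228), and Il17rb was lost without KO eTreg 3 (0.0642). When only the 2 groups were fitted, Il1r2 and Il18rap kept their calls and the other 6 did not.

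Of 18 ligands of the members, 5 rose in control eTregs, against 2.14% of all transcript clusters, and 0 fell. Il18, the ligand of Il18r1, measured 5.75, 5.68, 5.50 and 5.90 in control cTregs and 8.80, 8.90, 8.05 and 8.43 in control eTregs, and was called (limma, adjusted P = 0.00974), but not with a trended robust prior. Its cTreg signals lay below the background probe medians of the same arrays (6.11 to 6.17), so that no size is given for its rise. The other 4 were Il10 (1.87), the ligand of the Il10ra receptor, Il4 (1.67) and Il21 (1.31), both ligands of receptors with Il2rg, and Ebi3 (0.85), a subunit of IL-27. In control cTregs, Il10, Il4 and Il21 had means of 7.10, 6.91 and 6.98, not far above the same background probe medians. In arrays labelled KO, Il18, Il4 (2.24), Il21 (1.91) and Il10 (1.51) rose, and 0 fell, so that 4 of 18 stand against 2.02% of all transcript clusters. The mean of Il4 in KO cTregs was 6.57, close to the background probe medians of those arrays (6.00 to 6.30). The calls of Il18 and Il10 were lost with a trended robust prior and when only the 2 groups were fitted. Il18 was at or below the background probes on KO cTreg 1 and 2 (5.53 and 6.19). On KO eTreg 1 it was 7.09, against 10.94 and 10.47 on the arrays with high macrophage signal, and its call ended when either of these was left out, or KO cTreg 1 or 2 (adjusted P up to 0.0979). Il10 lost its call without KO eTreg 2 or 3 or any KO cTreg array (up to 0.137). Macrophages are a known source of IL-18.

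Further down the pathways, 19 kinases, adaptors and transcription factors and 18 feedback inhibitors and decoys had 0 calls in either subset contrast, either genotype contrast or the interaction (limma, adjusted threshold). In the subset difference averaged over both genotypes, 1 of the 19 and 0 of the 18 were called. The gene was Ptpn11, which encodes the phosphatase SHP2, and it was higher in eTregs by 0.55 (adjusted P = 0.0155). At an unadjusted P below 0.05, 6 of the 19 and 0 of the 18 differed between subsets in controls, and 6 and 1 in arrays labelled KO, where 12.8% and 13.8% of all transcript clusters did.

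The genotype comparison asked whether loss of Atg14 in Tregs alters these receptors. None of the 10 members was called between arrays labelled KO and controls. In eTregs it was 0 of 10 against 0.117% of all transcript clusters, and 0 of 10 had an unadjusted limma P below 0.05 against 8.03%. In cTregs it was 0 of 10 against 0.045%, and again 0 of 10 at an unadjusted P below 0.05 against 4.01%. The median difference over the members was 0.004 in eTregs and 0.01 in cTregs, with -0.02 and 0.02 over all transcript clusters.

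Il2rg, the chain shared by the receptors of IL-2, IL-4, IL-7 and IL-21, was the one member whose genotype groups did not overlap. It measured 13.02, 12.99, 12.91 and 12.95 in control cTregs and 13.07, 13.19 and 13.06 in KO cTregs. In eTregs it measured 12.91, 13.05, 12.94 and 12.98 in controls and 13.14, 13.08 and 13.08 in arrays labelled KO. Every array labelled KO exceeded every control array of its subset, which was the case for 6.85% of transcript clusters in eTregs in either direction (3.01% higher) and 5.05% in cTregs (2.7% higher), and for 0.158% in the higher direction in both. The gaps were small, at 0.14 in cTregs (95% interval -0.05 to 0.32, limma adjusted P = 0.9999) and 0.13 in eTregs (-0.06 to 0.31, adjusted P = 0.793). The average over both subsets, chosen after the values were seen, was 0.13 (limma, adjusted P = 0.808).

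For the members that separated the subsets, the genotype intervals were wide enough to leave moderate differences undetected. Il1rl1 differed by 0.04 in eTregs (95% interval -0.59 to 0.66) and by -0.39 in cTregs (-1.01 to 0.24, limma adjusted P = 0.9999). Its difference in eTregs was 0.34 without KO eTreg 1 and -0.22 without KO eTreg 3, so that its sign rested on single arrays. Il18r1 differed by -0.06 (-0.41 to 0.29) and 0.11 (-0.24 to 0.45), and Il10ra by -0.02 (-0.42 to 0.37) and -0.007 (-0.40 to 0.39). Il4ra was 0.19 higher in eTregs (-0.06 to 0.45) and 0.15 higher in cTregs (-0.11 to 0.41), and Il6ra 0.18 higher in eTregs (-0.05 to 0.40), with limma adjusted P values of 0.760, 0.9999 and 0.754. Il2rb, Il6st, Il7r and Il27ra differed by -0.12 to 0.02 in both subsets.

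**Figure D5:**
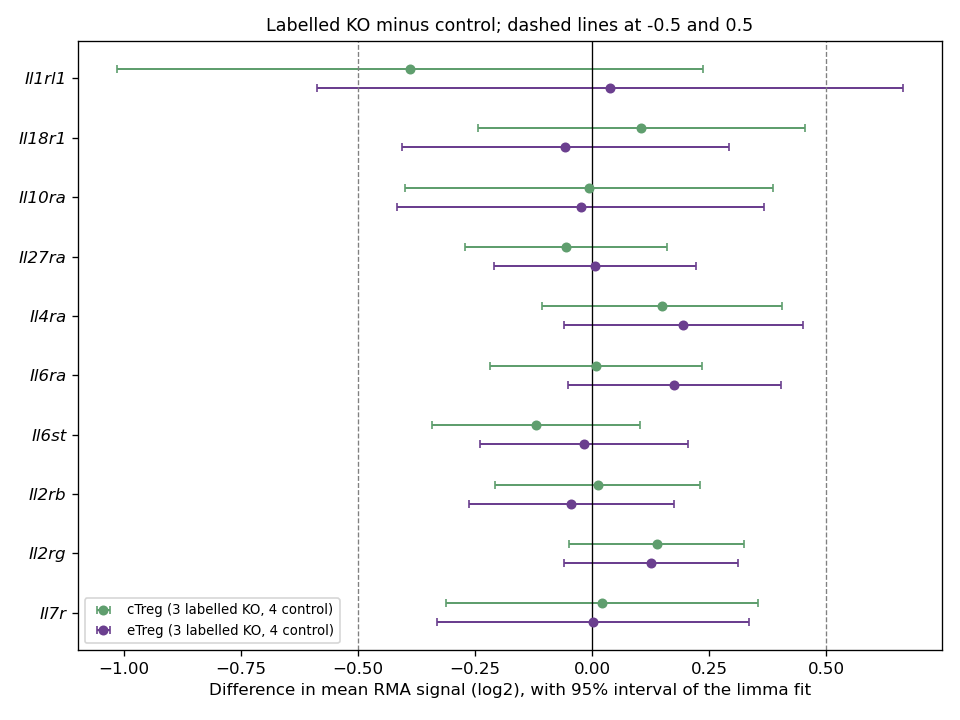
Difference in mean log2 signal, labelled KO minus control, for the 10 members with the 95% interval of the limma fit, in cTregs (green) and eTregs (purple), with dashed lines at -0.5 and 0.5. All 20 intervals include 0, and those of Il1rl1 are the widest.

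Whether the genotypes differed in the step from cTreg to eTreg was tested by the interaction. It was called for 0 of 10 members and for 0% of transcript clusters (0 of 22203, limma, smallest adjusted P = 0.107), and 0 of 10 members had an unadjusted P below 0.05 against 6.12% of all. The values ran from -0.16 for Il18r1 (95% interval -0.66 to 0.33) to 0.43 for Il1rl1 (-0.46 to 1.31).

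In the related lists, 0 of 50 other receptor subunits were called between genotypes in either subset, with 10 of 50 in eTregs (8.03% of all transcript clusters) and 0 of 50 in cTregs (4.01%) at an unadjusted P below 0.05. The largest difference of the 50 in eTregs was that of Csf1r (1.55). Csf1r and Csf2rb2 (8.52 in control and 9.64 in KO eTregs) were highest on KO eTreg 2 and 3, the arrays with high macrophage signal. The part of other cells in these 10 was not tested. Il1rap, the accessory chain of Il1rl1 and of Il1r1, is given here because of its value. It measured 9.40, 9.44, 9.43 and 9.03 in control eTregs and 8.37, 8.76 and 8.79 in KO eTregs, without overlap, and the difference of -0.68 (95% interval -1.02 to -0.35) had a limma adjusted P of 0.146. In cTregs it differed by 0.05, and the interaction was -0.73 (adjusted P = 0.727). Among the 18 ligands, Il21 was called in eTregs, at 8.49, 8.20, 8.46 and 7.99 in controls and 9.11, 9.15 and 8.99 in arrays labelled KO. The rise of 0.80 (adjusted P = 0.0354, lost when array 75th percentiles were subtracted or only the 2 groups were fitted) was shared by KO eTreg 1 with the 2 arrays of high macrophage signal. It was called in 6 of 14 omissions of a single array, with adjusted P values of 0.0122 to 0.138, and was lost without KO eTreg 2 or 3, control eTreg 2, 3 or 4, control cTreg 1 or 3, or KO cTreg 3. None of the 18 ligands was called in cTregs.

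For the 3 members with the largest subset difference in controls, the transcript clusters most alike over the 14 arrays were found by the root mean square of the difference after each was centred on its mean. Il1rl1 was closest to Lilrb4a (0.38 log2 units), Atp2b4 (0.42) and Nav2 (0.42), where the median over all transcript clusters was 1.44. Il18r1 was closest to Nfil3 (0.21), B4galnt4 (0.21) and Gprin3 (0.22), with a median of 0.82, and Il10ra to Enpp1 (0.15), 1500004A13Rik (0.16) and Ei24 (0.16), with a median of 0.44.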

How the data were processed

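Sorted Tregs of 4 groups were profiled on 14 Clariom S mouse arrays. The deposited values are log2 signals, which the authors made by robust multi-array average (RMA) in Affymetrix Expression Console 1.1, per the submitters' processing notes. RMA corrects background, quantile normalises all arrays together and summarises the probes of a transcript cluster, so a shift shared by most genes would be removed. Scans were not used here. Of 28846 entries, 6640 without a gene symbol and 3 with a blank one were left out, and the other 22203 (21902 symbols) all entered the tests, however dim. The number of arrays limits the precision.

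One linear model with 4 group means was fitted with limma 3.58.1 in R 4.3.3 (10 residual and 5.65 prior degrees of freedom), after a test on simulated data. P values are two-sided with Benjamini-Hochberg adjustment over all transcript clusters. Contrasts were eTreg minus cTreg in each genotype, labelled KO minus control in each subset, and their interaction. The study gives as many chimera mice per genotype as there are arrays per subset (4 control and 3 KO), so arrays of a group were taken as separate mice. Which cTreg and eTreg arrays share a mouse is not stated. Groups came from the labels. Signals of different genes were not ranked, since probes differ in affinity.

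The members, lists and tests were chosen with earlier results of these data known. All 10 members, Cd44, Foxp3, Atg14, Il2ra and the IL-1 receptor cluster are named (1 further gene of the rule is not reported here), and from each other list the called genes, at most 8 per contrast. Promoter windows are from RefSeq, and 7 members had one. Figures were drawn with matplotlib 3.10.9. Alternatives were array median and 75th percentile subtraction, a filter at the 60th percentile of signal, array weights, a trended robust prior, 2-group fits, a replicate block and omission of each array.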

Additional observations from a re-analysis of the deposited data

Results flagged for a closer look

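Of the 20 combinations of a member with a control group of 4 arrays, 1 had an array far from the others. Il6st in control eTregs was 12.61 on control eTreg 1 and 12.89 to 12.94 on the other 3, and the gap took up 0.840 of the whole range of the group. Chance alone is expected to give about 1 such group in 20. Groups of 3 arrays were not examined in this way.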

How the results depend on the processing

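Il1rl1 and Il18r1 kept their calls between subsets in all 21 alternatives, in both genotypes. The number of members called was 2 in controls, 3 under each of the 7 other settings and 2 to 3 when single arrays were left out. Under the 7 other settings the additional member was Il10ra (limma, adjusted P = 0.00911 to 0.0420), except with array medians subtracted, where it was Il4ra (-0.51, adjusted P = 0.0285). When single arrays were left out, it was Il10ra in 4 omissions (adjusted P = 0.0221 to 0.0436). In 2 omissions, those of control eTreg 2 and control eTreg 3, it was Il4ra (adjusted P = 0.0329 and 0.0420). In arrays labelled KO the number was 2, and 2 to 4 when single arrays were left out, with 4 without KO eTreg 1. Over members and contrasts, 914 values kept their direction and side of the threshold, 16 gained a call, 0 lost one and 50 changed sign. No member was called between genotypes or in the interaction in any alternative.

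Replicate numbers were taken as a block as an alternative. Deviations of same-numbered cTreg and eTreg arrays correlated at 0.0707 to 0.222 for controls and 0.0443 to 0.303 for the KO label. Those of differently numbered arrays correlated at -0.246 to 0.0897 and at -0.311 to 0.117. Same-numbered arrays were thus mostly the more alike. Still, no source ties a number to a mouse, so the numbers were not taken as pairs in the main fit. With the replicate block 3 members were called between subsets in controls, 2 under the KO label and 0 between genotypes.

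Values near 0 changed sign. With array medians subtracted, Il2rg was -0.0435 (eTreg minus cTreg, controls), and labelled KO minus control in cTregs was -0.0073 for Il2rb and -0.0103 for Il6ra. With 75th percentiles subtracted, the genotype difference was -0.0173 for Il7r and -0.0135 for Il27ra in eTregs and 0.0118 for Il10ra in cTregs. With array weights it was 0.0275 for Il18r1, 0.103 for Il10ra and -0.0508 for Il27ra in eTregs, and -0.0555 for Il7r and 0.0582 for Il10ra in cTregs. The cause was not tested.

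When single arrays were left out, the sign changed within these ranges. Between subsets, Il2rg ran from -0.0241 to 0.0231 in controls, and in arrays labelled KO Il2rg ran from -0.0298 to 0.0328, Il6st from -0.0661 to 0.0618 and Il27ra from -0.124 to 0.0110. Between genotypes in eTregs, Il7r ran from -0.0530 to 0.0744, Il6st from -0.0925 to 0.0155, Il1rl1 from -0.223 to 0.343, Il18r1 from -0.234 to 0.114, Il10ra from -0.147 to 0.129 and Il27ra from -0.0768 to 0.0578. In cTregs, Il2rb ran from -0.0273 to 0.0785, Il7r from -0.108 to 0.165, Il6ra from -0.0665 to 0.0927, Il18r1 from -0.0214 to 0.264 and Il10ra from -0.238 to 0.155. The Il18r1 interaction ran from -0.340 to 0.00931.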
